A study of Mus musculus with 9 samples.

Results

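The comparison asked what loss of Ezh2 changed in haematopoietic stem cells that already carried the mutant Jak2 allele. It set the 3 arrays of MxCre Jak2VF/+ EZH2-/- mice (called Jak2VF_Ezh2KO, or the double mutant) against the 3 arrays of MxCre Jak2VF/+ mice (called Jak2VF), that is 6 of the 9 arrays measured, with the 3 arrays of WT control mice given beside them. The members were all autosomal genes that could be named by exactly 1 symbol, each represented by its brightest probe set. This gave 21204 of 22180 such genes, since 905 lie on the X chromosome, 17 on the Y chromosome and 10 in the mitochondrial genome, and 44 had no chromosome in the gene table. Sex chromosomes were set aside because the arrays differ in sex, as described further on.

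All mice were C57BL/6, and those of all 3 groups received pI-pC at 4 weeks of age, in 5 doses of 300 µg. Marrow was taken 12 weeks after pI-pC, and long-term stem cells were sorted as Lin-, Sca-1+, c-kit+, CD34- and CD135- cells. Both mutant groups carry MxCre, a Cre recombinase driven by an interferon-inducible promoter that pI-pC switches on in marrow and in other tissues, and 1 mutant Jak2 allele, so the double mutant differs from Jak2VF by the deletion of Ezh2 alone as far as the labels state it. The labels do not say whether the WT control mice carried MxCre. The labels call the 3 samples of a genotype biological replicates, and each is 1 array hybridised with amplified RNA from 10 ng of starting material.

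Ezh2 is the main catalytic subunit of Polycomb repressive complex 2 (PRC2), which places the repressive methyl mark on lysine 27 of histone H3, preferentially at CpG-rich promoters of developmental genes. Ezh1 is its less active relative and can stand in for it in stem cells. The V617F form of Jak2 signals without cytokine and drives myeloproliferative disease, with an excess of erythroid and megakaryocytic cells.

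The 10 genes that passed the test across all genes are described first, and promoters of 3 of them are shown here because they differ in CpG content, with the CpG dinucleotides in capitals. All are RefSeq windows of 300 bases on GRCm38.p6, from 250 bases before to 50 after the gene's start, 5′ to 3′ along the gene. That of Mab21l2 (chr3:86548234-86548533, minus strand) holds 14 CpG dinucleotides, that of Itga2b (chr11:102469834-102470133, minus strand) holds 6, and that of Cma1 (chr14:55944626-55944925, minus strand) holds 3. Over all 32851 promoter windows of the table the median is 7, and the middle of the distribution runs from 3 to 20 (the 25th and 75th percentiles). None of the 3 holds the letters AGATAA, a form of the GATA factor motif, or TTCNNNGAA, the core of a Stat motif, on either strand. Of all windows 11.2% and 8.3% do. Other forms of these motifs were not searched for, so GATA factor motifs written otherwise may be present. Array data alone do not show which factors bind there.
Mab21l2: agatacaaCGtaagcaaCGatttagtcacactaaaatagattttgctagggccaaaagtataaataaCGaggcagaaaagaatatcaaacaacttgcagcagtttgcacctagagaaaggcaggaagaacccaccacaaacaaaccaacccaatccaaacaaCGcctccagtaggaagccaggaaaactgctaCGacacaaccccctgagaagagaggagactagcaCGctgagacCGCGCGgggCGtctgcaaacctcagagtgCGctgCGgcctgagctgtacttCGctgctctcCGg
Itga2b: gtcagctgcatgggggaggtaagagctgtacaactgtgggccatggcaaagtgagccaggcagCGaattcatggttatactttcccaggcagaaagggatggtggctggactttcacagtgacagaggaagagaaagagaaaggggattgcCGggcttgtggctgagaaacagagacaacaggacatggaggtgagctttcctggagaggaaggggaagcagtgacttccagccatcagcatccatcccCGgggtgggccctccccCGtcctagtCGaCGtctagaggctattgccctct
Cma1: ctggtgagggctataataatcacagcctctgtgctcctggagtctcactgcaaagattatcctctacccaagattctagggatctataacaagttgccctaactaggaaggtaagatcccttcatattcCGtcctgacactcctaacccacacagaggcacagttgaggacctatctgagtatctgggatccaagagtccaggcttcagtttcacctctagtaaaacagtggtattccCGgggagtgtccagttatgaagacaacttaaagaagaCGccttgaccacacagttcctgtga

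Values are log2 signals, so that a difference of 1 is a doubling. Over the 21204 genes, 7 rose and 3 fell in Jak2VF_Ezh2KO at an adjusted p under 0.05 (limma, Benjamini-Hochberg over all 22180 genes), which is 0.033% higher and 0.0141% lower. The smallest adjusted p was 0.0159. At an unadjusted p under 0.05 there were 620 genes on the higher side (2.92%) and 824 on the lower side (3.89%). A second, purely descriptive measure counted genes whose 3 arrays of one group all lay beyond all 3 of the other, here called no overlap. It held for 897 genes on the higher side (4.23%) and 1451 on the lower side (6.84%), and it is the background against which each gene list is read. The median difference over all 21204 genes was -0.04, the 5th and 95th percentiles were -0.42 and 0.39, and the median standard error was 0.18. Only 79 genes differed by more than 1 log2 unit upwards and 50 downwards.

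**Figure D1:**
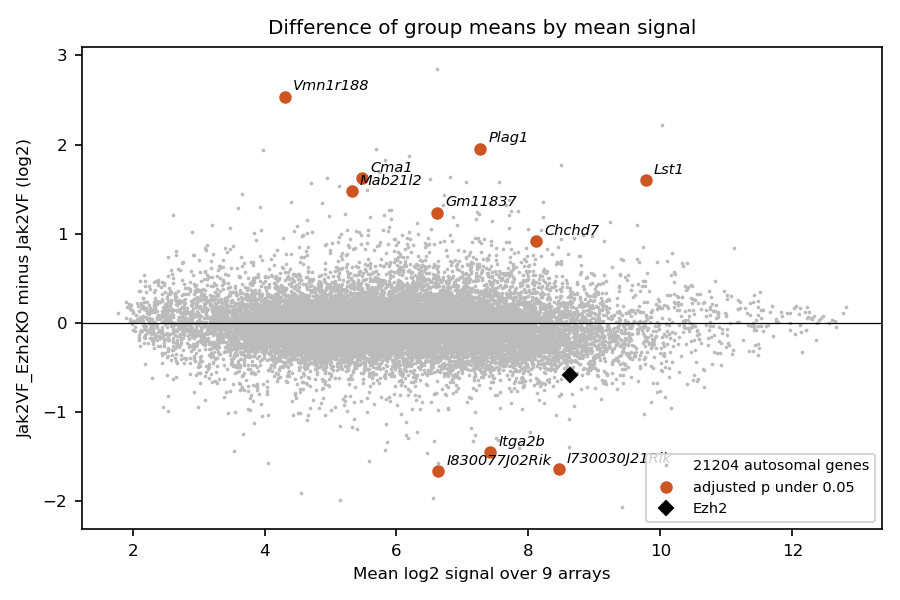
Difference between the means of the 3 Jak2VF_Ezh2KO and the 3 Jak2VF arrays (log2, y axis) against the mean log2 signal over 9 arrays (x axis), with 1 grey point for each of 21204 autosomal genes. The 7 genes that rose and the 3 that fell are in orange, and Ezh2 (black diamond) lies at -0.59.

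The 6 arrays correlated with each other at 0.91 to 0.963 across genes, and the medians of all 9 arrays lay between 5.51 and 5.67. The mean over 3 Y-linked genes was 6.66 and 6.81 in Jak2VF_Ezh2KO replicates 1 and 2 and 3.64 to 4.08 in the other 7 arrays, and Xist read 4.86 and 4.56 in the former pair against 10.84 to 11.31. So 2 of the 3 double mutant arrays have the signal of male mice, and all Jak2VF and WT arrays that of female mice, and the part of sex in the autosomal differences was not tested beyond the values given here. With the Y-linked signal as a covariate, 4 genes passed, of which only Plag1 was among the 10. Without both male arrays only 1 double mutant array is left, so that fit cannot separate sex from lost replication. Its calls are not given, and only differences from it are given below. As the male arrays are 2 of the 3 in their group, each result below rests in part on them. The mean over 1388 odorant and vomeronasal receptor genes, which have no known role in blood stem cells, differed between arrays. It was 4.31, 3.83 and 3.92 in Jak2VF, 3.94, 4.05 and 3.90 in Jak2VF_Ezh2KO and 4.22, 3.87 and 4.32 in WT. Replicate 2 was thus the lowest of its group in Jak2VF and in WT. The same 2 arrays have the highest erythroid list mean of their groups, as given below. Whether this signal bears on the gene lists was not tested. Among these receptor genes 46 showed no overlap on the higher and 62 on the lower side, with a median difference of -0.03.

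Of the markers of the gate, the genes of c-kit, CD135 and CD34 were looked at. Those of Sca-1 and the lineage markers are not given here. Kit, the receptor behind c-kit, read 9.80, 9.97 and 9.76 in Jak2VF and 9.69, 9.43 and 10.18 in the double mutant, so the groups overlapped. Flt3, which encodes CD135, read 7.10, 7.48 and 8.01 in Jak2VF and 7.73, 8.03 and 7.64 in the double mutant. Cd34, a sialomucin whose protein was gated out, read 10.39, 10.52 and 10.68 in Jak2VF and 9.91, 10.07 and 9.97 in the double mutant (difference -0.55, adjusted p = 0.413). Its RNA was thus readable in all 6 arrays of cells sorted as CD34-, and lower in every double mutant array than in every Jak2VF array.

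Ezh2 itself was lower in the double mutant but still clearly detected. The Jak2VF arrays read 8.87, 9.09 and 8.78 and the double mutant arrays 8.47, 8.08 and 8.42, a difference of -0.59 with a standard error of 0.16 that did not pass (adjusted p = 0.411). All 3 double mutant arrays lay below all 3 Jak2VF arrays. Which exons were deleted, and whether the probe set covers them, is not stated in the labels, and the level therefore does not check the deletion. Mtf2, a PRC2 accessory subunit, was the other of 11 PRC2 genes without overlap, at -0.39 (adjusted p = 0.689). Ezh1 differed by 0.12 and Eed, the subunit that reads the mark, by 0.07, and both change sign in some alternatives. Suz12, the scaffold subunit, differed by -0.33. Jak2 read 8.23, 8.52 and 8.11 in Jak2VF and 7.93, 7.90 and 7.66 in the double mutant, a difference of -0.46 (adjusted p = 0.539), and its level does not report the mutant allele.

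The genes that stand next to Ezh2 can travel with the engineered allele, so the 50 measured genes on each side were counted. Of these 100 genes, 8 lay higher and 6 lower without overlap, which is 14% in all beside 11.1% over all autosomal genes. The 100 genes around Jak2 gave 5 higher and 10 lower, or 15%. These 50-gene windows were set after the values were seen. In windows by distance, 9 of 96 genes within 5 Mb of Ezh2 were higher and 10 lower (19.8%). Within 10 Mb of Ezh2 the share was 15.7%, and around Jak2 it was 13.2% within 5 Mb and 14.8% within 10 Mb. The 5 Mb window around Ezh2 includes Hoxa2, Hoxa4 and Hoxa5, which are described with the Hox genes below. Among the genes near Ezh2 were also Gimap4, Gimap6 and Gimap7, small GTPase genes of lymphocytes, at 1.04, 0.68 and 0.78. They are described with the lymphoid genes below.

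Plag1, a zinc-finger transcription factor gene known for growth control and as an oncogene in salivary gland tumours, rose in the double mutant. It read 6.23, 6.14 and 6.15 in Jak2VF and 7.67, 8.22 and 8.50 in the double mutant. The Jak2VF arrays were nearly identical and the lowest double mutant array stood well above them. The rise was 1.95 ± 0.20 on the log2 scale (SE), 3.88-fold, with adjusted p = 0.0159. The WT arrays read 7.48, 7.33 and 7.69, so that 1 double mutant array lay within the range of WT and the others above it.

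Chchd7, a gene for a small mitochondrial intermembrane space protein, is the neighbour of Plag1 on chromosome 4 and rose with it. It read 7.73, 7.70 and 7.84 in Jak2VF and 8.65, 8.57 and 8.81 in the double mutant, with WT at 7.87, 7.97 and 7.93. This is a rise of 0.92 ± 0.12 (SE), 1.89-fold, with adjusted p = 0.0441. All 3 double mutant arrays lay above every array of both other groups. Among the 8 measured genes on either side of Plag1, the long non-coding RNA gene 6330407A03Rik read 5.56, 5.42 and 5.50 in Jak2VF and 6.11, 6.62 and 6.38 in the double mutant (difference 0.88, adjusted p = 0.134). The genes between and beside them differed less, with Mos at -0.05, Rps20 at 0.11 (0.31 in its other probe set), Sdr16c5 at 0.06, Sdr16c6 at -0.19 and Penk at -0.07, and Tgs1 at -0.51. Mos, Penk, Sdr16c5 and Sdr16c6 are dim, with mean signals over 9 arrays of 5.05, 5.05, 4.10 and 3.48. Rps20 read 7.68 in each double mutant array. Whether these probe sets respond to a change in RNA was not tested. Higher values without overlap were thus read for 3 of 17 genes in this stretch and not for the genes lying between them.

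Mab21l2, a developmental gene needed for the eye and body wall, rose from a low level. It read 4.91, 4.78 and 4.74 in Jak2VF, 6.23, 6.16 and 6.48 in Jak2VF_Ezh2KO, and 4.69, 5.11 and 4.77 in WT. It rose by 1.48 ± 0.15 (SE), which is 2.79-fold (adjusted p = 0.0159). Jak2VF and WT overlapped and the double mutant stood apart from both. Mab21l2 lies inside Lrba, a vesicle trafficking gene, which differed by 0.20. Its promoter is the one with 14 CpG dinucleotides printed above.

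Cma1, which encodes the mast cell protease chymase, also rose from a level shared by Jak2VF and WT. It read 4.64, 5.15 and 5.07 in Jak2VF, 6.91, 6.49 and 6.35 in the double mutant, and 4.93, 4.65 and 5.15 in WT, a rise of 1.63 ± 0.20 (SE) or 3.09-fold (adjusted p = 0.0441). Of other genes in the protease cluster of chromosome 14, Mcpt4 at 1.29 and Mcpt8 at 0.94 were higher without overlap, Ctsg at -1.32 was lower without overlap, and Mcpt-ps1 at 0.39 and Cma2 at 0.08 overlapped. Vmn1r188, a vomeronasal receptor gene, had the largest difference of the 10, at 2.54, with 3.51, 3.27 and 3.82 in Jak2VF and 6.23, 6.34 and 5.65 in the double mutant (adjusted p = 0.0159). Cma1, Mab21l2 and Vmn1r188 are among the dimmer genes, and they were not tested when these were left out.

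Lst1, a leukocyte transmembrane adaptor gene in the major histocompatibility complex, rose from 8.87, 9.02 and 9.27 in Jak2VF to 10.41, 10.62 and 10.93 in the double mutant. The WT arrays lay between, at 9.54, 10.01 and 9.34. The difference of 1.60 ± 0.20 (SE) is 3.03-fold (adjusted p = 0.0441). The next gene, Ltb, encodes lymphotoxin beta, a membrane ligand of the tumour necrosis factor family that also marks lymphoid-primed cells. It read 7.01, 6.88 and 7.80 in Jak2VF and 8.28, 8.30 and 8.88 in the double mutant (difference 1.26, adjusted p = 0.31). The other cytokine genes of this cluster, Tnf and Lta, differed by -0.15 and 0.14, and Aif1 on the other side by 0.32.

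**Figure D2:**
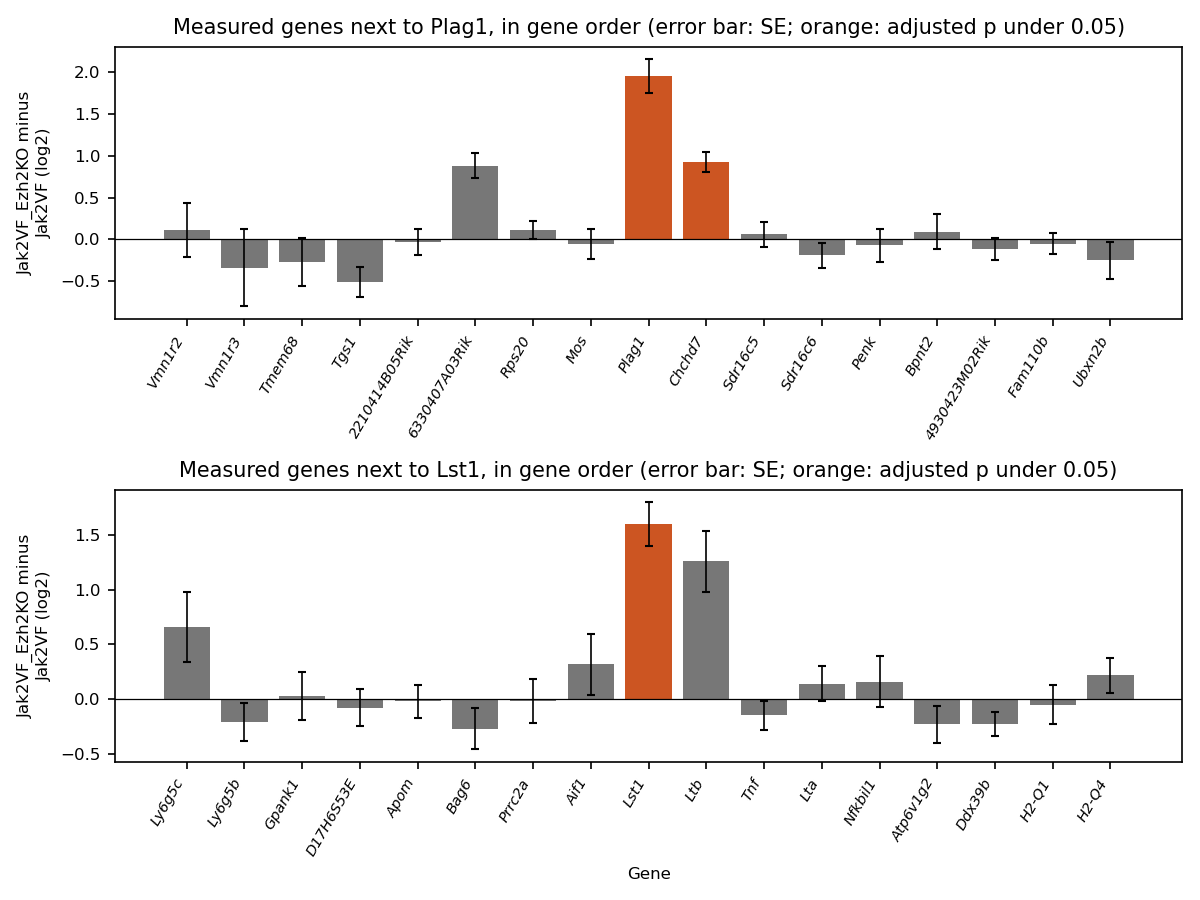
Difference between Jak2VF_Ezh2KO and Jak2VF (log2, bars; error bars are standard errors of the fit) of the 8 measured genes on either side of Plag1 (top) and Lst1 (bottom), in gene order. Plag1 at 1.95 and Chchd7 at 0.92 passed and Lst1 at 1.60 passed, and most of the genes around them lie near 0.

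Itga2b, the integrin subunit that forms the platelet fibrinogen receptor and marks megakaryocyte-primed stem cells, fell in the double mutant. It read 8.07, 8.51 and 8.31 in Jak2VF and 7.08, 6.59 and 6.85 in Jak2VF_Ezh2KO. It fell by 1.45 ± 0.19 (SE), which is 2.74-fold, with adjusted p = 0.0441. The WT arrays, at 6.86, 7.41 and 7.10, overlapped with the double mutant and lay below Jak2VF. In a bulk sample fewer cells of a type and less RNA per cell cannot be told apart, here and in the gene lists that follow. The uncharacterised genes I730030J21Rik and I830077J02Rik fell by 1.64 and 1.66, with 9.23, 9.13 and 9.63 against 7.52, 7.81 and 7.73 for the former (adjusted p = 0.0159). For the latter the arrays read 7.56, 7.60 and 7.75 against 6.25, 5.56 and 6.10 (adjusted p = 0.0441). The predicted gene Gm11837 rose by 1.24, from 6.05, 6.00 and 5.79 to 7.47, 7.12 and 6.95 (adjusted p = 0.0441).

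**Figure D3:**
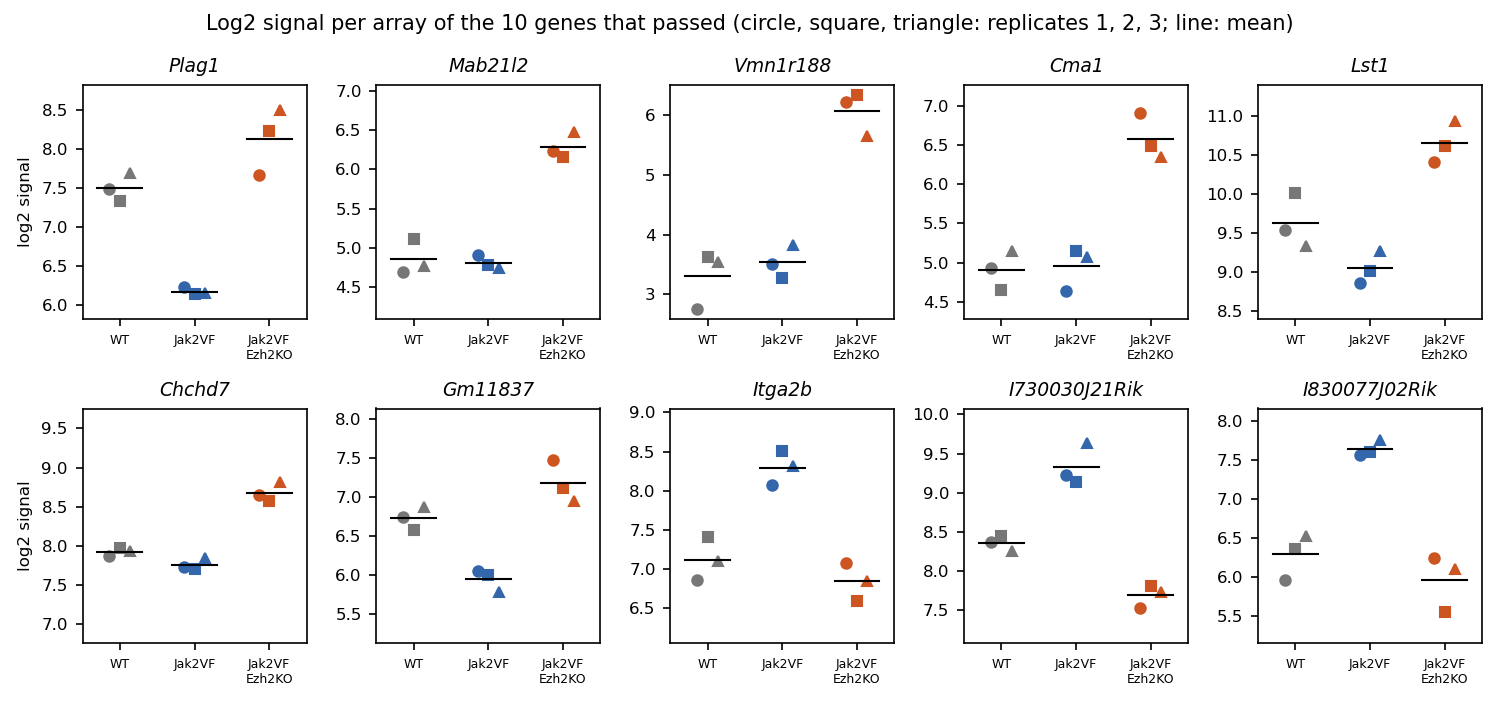
Log2 signal (y axis) of the 10 genes that passed in each of 9 arrays, grouped on the x axis as WT, Jak2VF and Jak2VF_Ezh2KO, with circles, squares and triangles for replicates 1, 2 and 3 and a line at the group mean. The y axes differ between panels in position. Plag1 reads 6.14 to 6.23 in Jak2VF and 7.67 to 8.50 in Jak2VF_Ezh2KO, and Itga2b 8.07 to 8.51 and 6.59 to 7.08.

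These calls rested on few arrays. Leaving out any 1 Jak2VF array, or Jak2VF_Ezh2KO replicate 2, left 0 genes passing with limma (smallest adjusted p from 0.0748 to 0.104, and 1119 to 1674 genes at an unadjusted p under 0.05). Without Jak2VF_Ezh2KO replicate 1 only Plag1 passed, and without any 1 WT array 4 or 5 genes did. The differences themselves moved less: over the arrays left out in turn, Plag1 ranged from 1.77 to 2.19, Mab21l2 from 1.39 to 1.54, Lst1 from 1.46 to 1.72 and Itga2b from -1.57 to -1.33.

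The named genes with the next smallest p in each direction missed the threshold. Higher in the double mutant were Fam169a at 0.85 (adjusted p = 0.0542), the T and NK cell surface gene Cd7 at 1.87, the interleukin-27 and interleukin-35 subunit gene Ebi3 at 1.38 (0.76 in its other probe set), the NK receptor gene Klrd1 at 1.69 and Id2, an inhibitor of E proteins that is needed for NK and innate lymphoid cells, at 1.64. Id2 read 5.54, 6.15 and 6.62 in Jak2VF and 7.86, 7.80 and 7.57 in the double mutant. On the lower side were the histone gene H2ac15 at -2.07 (adjusted p = 0.0608), the small GTPase gene Rap1b at -0.95 (-0.79 in its other probe set), the platelet signalling gene Plek at -1.39, the microtubule regulator Stmn1 at -0.67, the kinase gene Mapkapk2 at -0.89, Hnrnpdl at -0.67, the sphingosine phosphate receptor gene S1pr3 at -0.92, Ptpn12 at -0.63 and Adh6b at -0.85.

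Gene lists are described by how many members showed no overlap in each direction, beside 4.23% higher and 6.84% lower over all autosomal genes, and by the median difference, beside -0.04. Over all autosomal genes 8926 differences were positive and 12275 negative. Megakaryocyte and platelet genes lay lower. Of 28 measured members, 9 were lower without overlap (32.1%) and 0 higher, and the median difference was -0.26, with 23 negative differences. Itga2b was the only member that passed. Plek, a protein kinase C substrate of platelets, read 9.10, 9.46 and 9.54 in Jak2VF and 8.21, 7.47 and 8.24 in the double mutant. Gp5, a subunit of the von Willebrand factor receptor, read 7.29, 8.39 and 8.15 against 6.74, 6.33 and 6.99 (difference -1.26, adjusted p = 0.357). Itgb3, the partner of Itga2b in the fibrinogen receptor, read 6.71, 7.02 and 6.75 against 6.26, 5.76 and 5.99 (difference -0.82, adjusted p = 0.37). Rap1b, which switches that receptor on, read 10.56, 10.65 and 10.74 against 9.90, 9.52 and 9.67. Both subunits of this integrin and the switch upstream of it thus lay lower in all double mutant arrays.

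The granule genes Pf4 at -0.67 and Selp at -0.61, the collagen receptor gene Gp6 at -0.50 and the vesicle gene Rab27b at -0.32 made up the 9. Other megakaryocyte genes overlapped between the groups, such as Vwf at -0.31, Ppbp at -0.33, Treml1 at -0.09 and Mmrn1 at 0.14. The list mean relative to the 6 arrays was 0.00, 0.28 and 0.24 in Jak2VF, -0.15, -0.31 and -0.07 in Jak2VF_Ezh2KO and -0.11, 0.03 and -0.08 in WT. The median difference was -0.15 without Jak2VF replicate 2 and -0.22 without both male arrays. Without Jak2VF_Ezh2KO replicate 3, 15 of 28 members were lower without overlap, where 12% of all genes were. This count was not planned, and leaving out the double mutant array nearest to Jak2VF raises it by choice.

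The transcription factors of these lineages did not move together. Of 26 measured, 3 were higher and 3 lower without overlap, with a median difference of -0.01 that turned to 0.03 with quantile normalization. The lower ones were the megakaryocyte activators Fli1 at -0.59 and Meis1 at -0.38 and the repressor Etv6 at -0.39, and the higher ones Nfia at 0.56, Ets1 at 0.30 and Zbtb7a at 0.12. Gata1, Gfi1b and Tal1 differed by 0.04, 0.14 and 0.03.

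Erythroid genes lay on the opposite side. Of 27 measured members, 6 were higher without overlap (22.2%) and 0 lower, 0 passed with limma, and 23 differences were positive, with a median of 0.32. At an unadjusted p under 0.05 there were 6 higher and 0 lower. Mt2 and Mt1, metallothioneins that bind zinc and are induced in erythroid precursors and under stress, lay highest. Mt2 read 8.67, 10.33 and 8.82 in Jak2VF and 11.56, 11.65 and 11.27 in the double mutant (difference 2.22, adjusted p = 0.221). Mt1 read 8.79, 9.77 and 9.15 against 10.51, 10.53 and 9.96 (difference 1.10). In both, Jak2VF replicate 2 was the highest of its group and still below every double mutant array.

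Rhd, the Rhesus blood group antigen gene, read 5.80, 6.63 and 5.73 in Jak2VF and 7.48, 7.11 and 7.33 in the double mutant (difference 1.25, adjusted p = 0.352). Blvrb, a biliverdin reductase gene, read 6.53, 7.81 and 6.76 against 8.24, 8.0 and 8.29, and Tspan33, a membrane gene of erythroid progenitors, 5.77, 6.78 and 5.84 against 7.10, 7.35 and 7.10. Klf1, the master activator of erythroid genes, read 6.41, 7.82 and 6.61 against 8.07, 7.90 and 7.57, where Jak2VF replicate 2 reached the double mutant arrays (difference 0.90, adjusted p = 0.683). The late membrane gene Slc4a1 differed by 0.05, and the transferrin receptor gene Tfrc by -0.22. The list mean was -0.46, 0.09 and -0.30 in Jak2VF and 0.33, 0.19 and 0.15 in Jak2VF_Ezh2KO, and -0.45, 0.08 and -0.24 in WT. Jak2VF replicate 2 and WT replicate 2 thus lay nearer to the double mutant than the other arrays of their groups. The median was 0.21 without Jak2VF replicate 1 and 0.21 without both male arrays. Without Jak2VF replicate 2, 14 of 27 members were higher without overlap, where 10.2% of all genes were. This count was not planned, and leaving out the Jak2VF array nearest to the double mutant raises it by choice.

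Heme biosynthesis and iron genes had 4 of 19 higher (21.1%) and 0 lower without overlap, but the median of 0.08 fell to -0.01 without Jak2VF replicate 1. Alad, the second enzyme of heme synthesis, read 7.82, 8.70 and 8.19 in Jak2VF and 9.07, 9.15 and 9.05 in the double mutant. Hmox1, which degrades heme, was at 0.29 and the mitochondrial carrier Slc25a38 at 0.20.

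**Figure D4:**
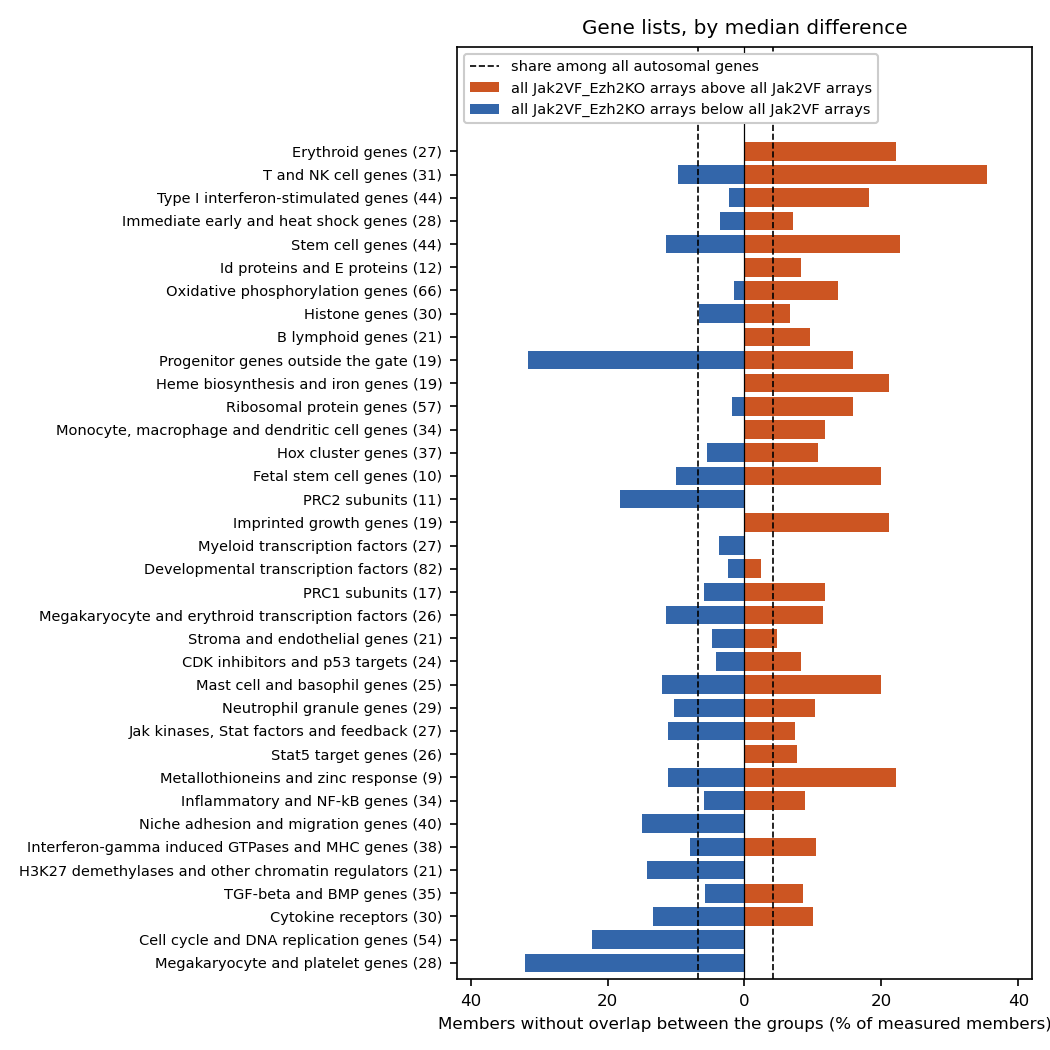
Share of the measured members of each gene list (numbers in brackets) in which all 3 Jak2VF_Ezh2KO arrays lie above (orange, right) or below (blue, left) all 3 Jak2VF arrays, in percent, ordered by the median difference. Dashed lines mark 4.23% and 6.84%, the shares over all 21204 autosomal genes. Megakaryocyte and platelet genes reach 32.1% on the lower side and T and NK cell genes 35.5% on the higher side.

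T and NK cell genes lay higher, led by receptors of NK and innate lymphoid cells. Of 31 measured members, 11 were higher (35.5%) and 3 lower (9.68%) without overlap, with a median of 0.24, and 0 passed with limma, against 9 higher and 3 lower at an unadjusted p under 0.05. Il7r, the interleukin-7 receptor, read 5.57, 4.80 and 4.40 in Jak2VF and 6.05, 7.25 and 7.33 in the double mutant (difference 1.95, adjusted p = 0.221). Cd7 read 5.24, 5.60 and 6.19 against 7.13, 7.43 and 8.07, and Klrd1, which encodes the CD94 receptor, 5.53, 4.99 and 4.70 against 6.33, 6.87 and 7.10. Ccl5, a chemokine gene, read 7.51, 7.71 and 8.47 against 9.38, 9.72 and 9.91 (difference 1.77, adjusted p = 0.244). In each of these the lowest double mutant array lay above the highest Jak2VF array.

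Klrk1, the gene of the activating receptor NKG2D, was at 1.15, Klre1 at 1.03, Il2rb, the receptor subunit for interleukins 2 and 15, at 0.88, and Ctsw at 0.75. Among all 22 measured Klr genes of the NK receptor families, counted after their values were seen, 5 were higher and 0 lower without overlap, with a median of 0.05. Klra5 at -0.71, Klra9 at -0.54 and Klra2 at -0.41 read lower, with overlap between the groups, so the family did not move as a whole. Of 8 Gimap genes, counted in the same way, 3 were higher and 0 lower, with a median of 0.42. Tox, a nuclear factor needed for innate lymphoid and T cells, was also noticed after its values were seen. It read 5.85, 6.29 and 6.49 in Jak2VF and 7.41, 7.13 and 7.64 in the double mutant (difference 1.18, adjusted p = 0.102), with WT at 6.84, 6.88 and 7.12.

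Cd3e, a chain of the T cell receptor complex, read 4.87, 4.72 and 5.14 in Jak2VF and 5.16, 4.83 and 5.03 in the double mutant, so that the groups overlapped. Cd8a and Zap70 differed by -0.05 and -0.09, and Cd3d and Cd3g, at 0.47 each, overlapped between the groups. The lower members without overlap were Nkg7 at -0.75, Thy1 at -0.50 and Cd4 at -0.39. The NK factors Eomes and Tbx21 differed by 0.25 and -0.10. The list mean was -0.22, -0.29 and -0.12 in Jak2VF and 0.11, 0.21 and 0.31 in Jak2VF_Ezh2KO, and -0.12, -0.29 and -0.26 in WT, so that the double mutant stood apart from both. The median was 0.15 without Jak2VF replicate 2 and 0.19 without both male arrays.

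Early B lymphoid genes gave a divided picture that turned on 1 array. Dntt, the terminal transferase of lymphoid progenitors, read 6.76, 7.46 and 7.36 in Jak2VF and 8.49, 8.76 and 9.09 in the double mutant (adjusted p = 0.342), and with Il7r it was one of 2 of 21 members without overlap (9.52% higher, 0 lower). Cd79a, a chain of the B cell receptor, read 4.80, 4.95 and 5.06 against 4.96, 4.96 and 6.74, and Ebf1, a B lineage factor, 4.52, 4.52 and 4.52 against 4.52, 4.77 and 5.55. In both, only Jak2VF_Ezh2KO replicate 3 was high. The list mean was 0.71 in that array and -0.26 to -0.01 in the other 5, and without it the median fell from 0.12 to 0.01.

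The same array was highest for late neutrophil genes. S100a8, a subunit of calprotectin, read 4.26, 5.31 and 6.27 in Jak2VF and 7.75, 6.74 and 9.91 in the double mutant (difference 2.85, adjusted p = 0.474). S100a9, its partner, read 6.18, 5.48 and 5.72 against 7.33, 6.38 and 8.50. Camp, an antimicrobial granule peptide gene, read 3.29, 3.55 and 3.65 against 3.74, 3.72 and 6.05. The primary granule genes of early myeloid cells lay the other way, with Ctsg at -1.32, Ms4a3 at -0.89 and Mpo at -0.58. Over the 29 measured genes 3 were higher and 3 lower without overlap (10.3% each), with a median of -0.03. Ltf, Lcn2 and Ly6g, which mark mature neutrophils, differed by 0.10, 0.10 and -0.14.

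Mast cell and basophil genes held the one protease that passed. Of 25 measured, 5 were higher (20%) and 3 lower (12%) without overlap, with a median of -0.03. Besides Cma1 these were Mcpt4, at 3.04, 3.13 and 3.16 in Jak2VF and 4.64, 3.40 and 5.15 in the double mutant, Mcpt8 at 0.94, Tpsb2 at 0.45 and Mcpt1 at 0.32, all of them granule proteases. Across 10 mast cell protease genes, counted after their values were seen, the same 5 were higher and 0 lower without overlap, so this count adds no further genes. Other genes of these cells did not share this, with Fcer1a and Ms4a2, chains of the IgE receptor, at -0.31 and -0.35, Cpa3 at 0.33, and the monoamine transporter gene Slc18a2 lower at -0.68. Among monocyte, macrophage and dendritic cell genes 4 of 34 were higher and 0 lower, namely Lst1, the signalling chain gene Fcer1g at 0.66, C1qb at 0.38 and Fcgr1 at 0.23, with a median of 0.05.

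**Figure D5:**
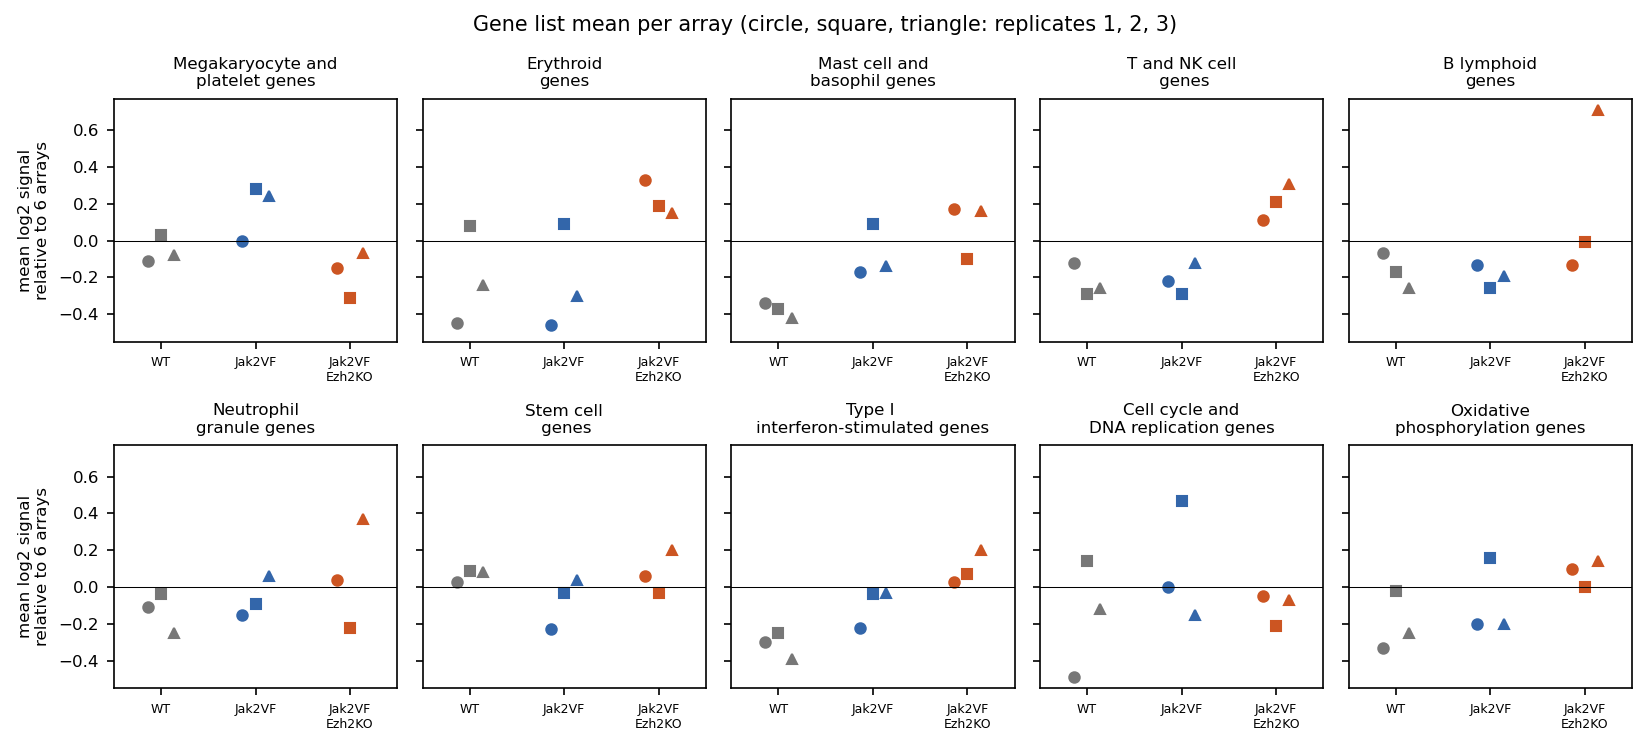
Mean log2 signal of 10 gene lists in each array, relative to each gene's mean over the 6 mutant arrays (y axis), for WT, Jak2VF and Jak2VF_Ezh2KO (x axis), with circles, squares and triangles for replicates 1, 2 and 3. T and NK cell genes lie at -0.29 to -0.12 in Jak2VF and 0.11 to 0.31 in Jak2VF_Ezh2KO, and B lymphoid genes are high in 1 double mutant array, at 0.71.

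Stem cell genes had more members on the higher than on the lower side. Of 44 measured, 10 were higher (22.7%) and 5 lower (11.4%) without overlap, with a median of 0.14, and 0 passed with limma, against 8 higher and 3 lower at an unadjusted p under 0.05. Procr, the endothelial protein C receptor that marks the most quiescent stem cells, read 7.25, 7.01 and 7.18 in Jak2VF and 7.96, 8.19 and 7.99 in the double mutant (difference 0.90, adjusted p = 0.0941). Sult1a1, a sulfotransferase gene enriched in stem cells, read 6.04, 6.31 and 6.78 against 7.68, 7.75 and 7.45 (difference 1.25, adjusted p = 0.132). Emcn, the sialomucin endomucin, read 6.43, 5.91 and 5.92 against 7.19, 6.63 and 7.74. In all 3 genes every double mutant array lay above every Jak2VF array, and so did every WT array. The WT arrays read 7.97, 7.57 and 7.81 for Procr, 7.52, 7.45 and 8.0 for Sult1a1, and 7.43, 7.63 and 7.43 for Emcn. Within the WT range lay 3 double mutant arrays for Sult1a1, 1 for Procr and 0 for Emcn.

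Smaller differences in the same direction were those of the transcription regulators Mecom at 0.31, Mllt3 at 0.35, Tcf15 at 0.70 and Ndn at 0.70. On the lower side lay Clca3a1 at -0.66, Cd34, Meis1, Apoe at -0.29 and Sox17 at -0.24. Slamf1, which encodes CD150, differed by -0.23 and overlapped. The stem cell list mean was -0.23, -0.03 and 0.04 in Jak2VF, 0.06, -0.03 and 0.20 in the double mutant and 0.03, 0.09 and 0.08 in WT. The arrays of the 2 mutant groups thus overlapped as a whole. The median was 0.07 without Jak2VF replicate 1 and 0.04 without Jak2VF_Ezh2KO replicate 3. Of 19 genes of progenitors that the gate keeps out, 3 were higher (15.8%) and 6 lower (31.6%). The lower ones were Ctsg, Ms4a3, Pf4, Mpo, Cd34 and Cd48, the last at -0.43, and the higher ones Il7r, Dntt and Cd52.

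Developmental regulators, a class that PRC2 is known to hold silent, gave few differences. Of 82 measured developmental transcription factors, 2 were higher and 2 lower without overlap (2.44% each, below the shares over all genes), with a median of 0.00, and Mab21l2 was the only one that passed. The others were En1 at 0.17, Prdm14 at -0.39 and Sox1 at -0.15. Among 37 Hox cluster genes and partners, 4 were higher (10.8%) and 2 lower, namely Hoxa4 at 0.56, Hoxa2 at 0.53, Hoxa5 at 0.37 and the cofactor Pbx3 at 0.60, against Hoxa13 at -0.26 and Meis1. Hoxa4 read 4.81, 5.37 and 5.40 in Jak2VF and 5.71, 5.76 and 5.77 in the double mutant (adjusted p = 0.504). The 3 Hoxa genes that lay higher stand near each other in their cluster on chromosome 6. They lie in the 5 Mb window around Ezh2 that was counted above.

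Of 10 measured fetal stem cell genes, Plag1 passed and Lin28b, the RNA-binding regulator of the fetal state, read 4.76, 4.42 and 4.60 in Jak2VF and 5.03, 5.07 and 5.01 in the double mutant (difference 0.44). Hmga2 differed by 0.22 with overlap, and Sox17 lay lower. Imprinted growth genes had 4 of 19 higher (21.1%) and 0 lower, with a median of 0.01. These were Grb10, an adaptor that damps insulin signalling, at 0.70, Ndn at 0.70, Phlda2 at 0.48 and Igf2r at 0.34. Igf2 itself, often named beside Plag1 as its target, differed by -0.19. Cdkn2a, the cell cycle inhibitor locus classically repressed by Polycomb, read 5.73, 5.85 and 6.21 in Jak2VF and 5.90 in each of the 3 double mutant arrays, a difference of -0.03. Equal values in the 3 double mutant arrays were also read for Adora3, at 5.02, and Rps20, at 7.68. Whether such probe sets respond to a change in RNA was not tested. Across 24 CDK inhibitors and p53 targets 2 were higher and 1 lower without overlap.

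Among other chromatin regulators 16 differences were negative and 5 positive, where 12275 of all 21204 genes had a negative difference. Of 21 demethylases, DNA methylation enzymes and related regulators, 0 were higher and 3 lower without overlap (14.3%), namely the methylcytosine dioxygenase Tet3 at -0.53, Dnmt1 at -0.44 and Nsd2 at -0.25, with a median of -0.08. Among 17 PRC1 subunits, Cbx7 at 0.28 and Pcgf1 at 0.36 were higher and Yaf2 at -0.23 lower. Bmi1, the PRC1 subunit needed for stem cell self-renewal, read 6.10, 6.30 and 5.97 in Jak2VF and 6.94, 6.81 and 6.16 in the double mutant, a difference of 0.52 with overlap in 1 array.

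Downstream of Jak2 there was no common direction. Cish, a feedback inhibitor induced by Stat5, read 6.61, 7.59 and 7.43 in Jak2VF and 7.91, 8.88 and 8.47 in the double mutant (difference 1.21, adjusted p = 0.39; 0.67 in its other probe set). Socs1, another feedback inhibitor, was at 0.34. Stat5b read 8.0, 8.33 and 8.26 against 7.51, 7.12 and 7.68 (difference -0.76), and Socs7 was at -0.40. Over 27 genes of the pathway 2 were higher (7.41%) and 3 lower (11.1%), and over 26 Stat5 targets 2 were higher and 0 lower, with medians of -0.04 in both. The other targets Pim1, Osm and Socs2 differed by -0.29, -0.35 and 0.24.

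Of 30 cytokine receptor genes, 3 were higher (10%) and 4 lower (13.3%) without overlap. Csf2rb2 and Csf2rb, the near-identical beta chains for interleukin-3 and, for the latter, interleukin-5 and GM-CSF, read lower. Csf2rb2 read 7.13, 7.02 and 8.0 in Jak2VF and 5.52, 6.51 and 5.76 in the double mutant (difference -1.46, adjusted p = 0.342), and Csf2rb 7.53, 6.89 and 7.07 against 6.63, 6.01 and 6.47 (difference -0.79). Because the sequences of this pair are so alike, their probe sets may share signal. Il1r1 was at -0.46 and Tnfrsf1a at -0.38. The 3 higher genes were Il7r, Il2rb and Il18r1, the last at 0.89. Il4ra at -0.52, Csf3r at -0.20, Il3ra at 0.02, Csf2ra at 0.03 and Epor, the erythropoietin receptor, at 0.32 overlapped between the groups.

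Adhesion and migration genes had 6 of 40 lower (15%) and 0 higher without overlap. Itga6, a laminin receptor subunit, read 8.66, 8.88 and 8.35 in Jak2VF and 7.82, 7.80 and 8.0 in the double mutant (difference -0.75, adjusted p = 0.317). S1pr3 read 5.46, 6.07 and 5.72 against 4.80, 4.96 and 4.74. Rap1b, Itgb3 and Selp, counted above among the platelet genes, were 3 of the 6, and Cd47, the signal that protects from phagocytosis, was at -0.13.

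Type I interferon-stimulated genes lay higher by small steps. Of 44 measured, 8 were higher (18.2%) and 1 lower (2.27%) without overlap, 32 differences were positive, the median was 0.18, and 0 passed with limma, against 8 higher and 0 lower at an unadjusted p under 0.05. Ifit1, an antiviral RNA sensor, read 6.37, 6.28 and 6.52 in Jak2VF and 7.11, 7.18 and 7.32 in the double mutant (difference 0.82, adjusted p = 0.253). Phf11d was at 0.95, the ubiquitin-like modifier Isg15 at 0.64, Rtp4 at 0.64, Isg20 at 0.49 and Oasl1 at 0.41. The list mean was -0.22, -0.04 and -0.03 in Jak2VF, 0.03, 0.07 and 0.20 in the double mutant and -0.39 to -0.25 in WT. The median was 0.11 without Jak2VF replicate 1.

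Interferon-gamma GTPases and MHC genes did not share this. Of 38, 4 were higher (10.5%) and 3 lower (7.89%) without overlap, with a median of -0.08 and 25 negative differences. At an unadjusted p under 0.05 with limma there were 1 higher and 6 lower. The MHC class II genes H2-DMa at -0.52 and H2-Eb1 at -0.42 read lower, with overlap between the groups. The immunoproteasome subunit gene Psmb9 read 10.89, 11.16 and 10.81 in Jak2VF and 10.04, 10.43 and 10.51 in the double mutant (difference -0.63), and the peptide transporter gene Tap2 was at -0.48. The chemokine gene Cxcl10 at 0.66 and the GTPase genes Gbp4 at 0.85 and Irgm1 at 0.24 lay higher. Among 34 inflammatory genes, Ebi3, Ccl5 and Ltb were higher and Il12a and Il1a lower, at -0.61 and -0.56. Of 35 TGF-beta and BMP genes 3 were higher, with the receptor gene Bmpr1a at 0.58, and 2 lower, Acvr1b at -0.51 and Tgfbr3 at -0.33.

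Cell cycle and DNA replication genes lay lower, with 12 of 54 (22.2%) without overlap and 0 higher, 46 negative differences and a median of -0.22. Cdk6, the kinase that governs exit from quiescence, read 10.40, 10.49 and 10.40 in Jak2VF and 9.74, 9.71 and 9.51 in the double mutant (difference -0.77, adjusted p = 0.429). Stmn1 read 7.81, 7.75 and 7.77 against 7.03, 7.09 and 7.21 (adjusted p = 0.11). The mitotic kinesin gene Kif11 was at -0.70, the mitotic activator Foxm1 at -0.58 and Uhrf1, a partner of Dnmt1, at -0.55. The list mean was 0.00, 0.47 and -0.15 in Jak2VF and -0.05, -0.21 and -0.07 in the double mutant, with Jak2VF replicate 2 far above the others. Without that array the median was -0.02, and 12 members (22.2%) showed no overlap on the lower side, where 14.7% of all genes did. Mki67, a marker of cycling cells, read 9.18, 9.61 and 9.01 against 9.24, 9.13 and 9.18.

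Of 30 histone genes 2 were higher and 2 lower (6.67% each). H2ac15 read 10.39, 10.43 and 9.53 in Jak2VF and 7.71, 7.85 and 8.59 in the double mutant, and H2bc18 lay the other way at 0.91, so the histone genes did not follow the cell cycle genes as a group. Histone genes of a family are close copies of each other and their probe sets may share signal.

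Genes of mitochondria and ribosomes lay slightly higher. Of 66 oxidative phosphorylation genes 9 were higher (13.6%) and 1 lower (1.52%) without overlap, 51 differences were positive and the median was 0.14. The higher ones were mainly subunits of complex I, such as Ndufc1 at 0.58, Ndufa3 at 0.57, Ndufa6 at 0.54 and Ndufc2 at 0.40, and the lower one was Sdhc of complex II at -0.50. Of 57 ribosomal protein genes 9 were higher (15.8%) and 1 lower (1.75%), with a median of 0.08. Rpl7 was at 0.31 (-0.14 in its other probe set) and Rpl30 at 0.88, and Rpl3 at -0.88 (0.30 and 0.08 in its other probe sets). Jak2VF replicate 2 was again the array nearest to the double mutant, with a list mean of 0.16 for the oxidative phosphorylation genes against -0.20 in each of the others. Without it 39 of the 66 and 19 of the 57 were higher without overlap, where 10.2% of all genes were. These counts were not planned, and leaving out the nearest array raises them by choice. The median for oxidative phosphorylation was 0.25 without Jak2VF replicate 2, whereas it was 0.08 without Jak2VF replicate 3.

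Stress genes differed in few members. Among 28 immediate early and heat shock genes 2 were higher and 1 lower without overlap. Hspa1b, a heat shock protein, read 4.13, 4.60 and 4.76 in Jak2VF and 5.82, 6.30 and 5.39 in the double mutant (difference 1.35, adjusted p = 0.43), and Jund was high mainly in Jak2VF_Ezh2KO replicate 3, at 9.0 against 7.13 to 7.89 in the other 5 arrays. The list mean of that array was 0.50 and the others ranged from -0.27 to 0.07, and without it the median of 0.17 became -0.04. Of 9 metallothionein and zinc genes only Mt1 and Mt2 were higher, and the zinc importer Slc39a10 was lower at -0.32. Stroma and endothelial genes, which the sort should remove, had 1 of 21 higher, Emcn, and 1 lower, Pdgfrb at -0.52, without overlap. At an unadjusted p under 0.05 with limma, 2 were higher and 0 lower. Col1a2 at 0.89 (0.06 in its other probe set) overlapped between the groups, and Cdh5 and Col1a1 differed by -0.08 and -0.02.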

How the data were processed

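Expression was measured on 9 Affymetrix mouse gene arrays, 3 per genotype (WT, Jak2VF, Jak2VF_Ezh2KO), grouped by the sample titles. Per the labels' protocols, 10 ng of RNA was amplified and labelled with biotin. The deposited values are on the log2 scale for 41345 probe sets, and the submitters' processing notes name Partek 6.6. How the authors corrected background, normalized and summarised probes was not given in the sources used here. The values were analysed as deposited. Precision is limited by the 3 arrays of each group.

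The platform annotation gave 23521 probe sets 1 gene symbol and 1814 several, and 16010 were unnamed here. Of 22180 genes, 1082 had more than 1 probe set, and the one with the highest mean over 9 arrays was used. Gene order and promoters came from RefSeq tables (GRCm38.p6). Gene coordinates are not printed because the build behind the array was not stated. Promoters of Plag1, Chchd7 and Lst1 were not used here.

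Differences were fitted with limma 3.58.1 (R 4.3.3), using lmFit and eBayes with no trend over all 9 arrays. Residual degrees of freedom were 6, and the prior had 3.83 degrees of freedom and an SD of 0.206. P-values were Benjamini-Hochberg adjusted over 22180 genes, and genes passed under 0.05. The fit was tested on simulated data. The members, the 36 gene lists, the tests and the alternatives were chosen with earlier results of these data known. The text names, per direction, up to 10 genes that passed without overlap, filled up by the smallest unadjusted p, up to 5 members of each list by p, the PRC2 core genes with Jak2, and the neighbours of passing genes. Predicted genes, RIKEN clones and receptor genes are named only where they passed or neighbour a named gene. Further list members, marker genes and gene families were named after their values were seen.

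Alternatives were a trended robust variance, no moderation, quantile normalization, median centring, a filter on dim genes, the 2 groups alone, array weights, other uses of probe sets, a replicate block, a sex covariate and arrays left out. Labels number the replicates in each group, but deviations of same-numbered arrays correlated at 0.001, -0.168 and -0.012, so the numbers were not treated as pairs.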

Additional observations from a re-analysis of the deposited data

Results flagged for a closer look

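In the double mutant group, signal from Y-linked genes (the mean log2 signal of Eif2s3y, Kdm5d and Uty) stood above the level in the control arrays. It was 6.66 in Jak2VF_Ezh2KO replicate 1 and 6.81 in replicate 2, against 3.64 to 4.08 in the other 7 arrays. These genes lie outside the autosomal comparison. The part of sex in the autosomal differences was not tested beyond the fits with this signal as a covariate and without both arrays.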

How the results depend on the processing

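The count of 10 passing genes was 14 with a trended robust variance, 12 with quantile normalization, 11 with array weights, 10 with the mean of probe sets and 10 when adjusted over autosomal genes alone. It was 4 with median centring, 18 without the dimmer genes (7 of them among the 10) and 21 at an adjusted p under 0.1. It was 4 with the Y-linked signal as a covariate. The fit without both arrays with Y-linked signal leaves 1 double mutant array, and its calls are not given. With ordinary least squares, which leaves out limma's moderation, the count was 0, with 1296 genes at an unadjusted p under 0.05. With limma it was 0 with the 2 groups alone and 0 when every probe set was tested, where 1468 and 1250 were at an unadjusted p under 0.05. With the replicate block it was 0 (smallest adjusted p = 0.0702, and 1494 at an unadjusted p under 0.05). Leaving out 1 array at a time gave 0 to 8. The cause was not tested. The 2348 genes without overlap became 1548 without the dimmer genes, which are fewer genes counted, 2348 to 5278 with 1 array left out and 9094 without the 2 male arrays, since fewer arrays overlap less often. Over 29 named genes, 432 of 573 alternative values kept direction and call, 124 lost the call, 12 gained it and 5 turned. Eed turned to -0.21 with the Y-linked covariate, -0.04 without Jak2VF replicate 3, -0.03 without Jak2VF_Ezh2KO replicate 2 and -0.26 without the 2 male arrays (-0.04 to 0.23 over all arrays left out in turn), and Ezh1 to -0.03 without Jak2VF replicate 1 (-0.03 to 0.23 over all arrays left out in turn). Counts of list members without both arrays, chosen after seeing the data, were 13 of 28 megakaryocyte and platelet genes lower, 14 of 31 T and NK cell genes and 10 of 27 erythroid genes higher, beside 24.5% lower and 18.4% higher over all genes. The 3 arrays a group and unstated normalization limit all of these.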
